A study of Mus musculus with 22 samples.

Results

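To describe active chromatin at erythroid and megakaryocyte genes in myeloid progenitors, H3K27ac peaks were examined at 10 genes, Gata1, Gata2, Klf1, Zfpm1, Gfi1b, Nfe2, Epor, Tfrc, Itga2b and Car1, of the 21938 protein-coding genes annotated. The genes were chosen by name as regulators, receptors and surface or enzyme genes of the red cell and platelet lineages, and every peak in or within 50 kb of each gene was collected in GRCm38. Chromatin immunoprecipitation sequencing (ChIP-seq) for H3K27ac, the acetylated histone found at promoters and enhancers in use, gave peak lists for 3 libraries of BcorΔE9-10 KL cells, called replicates 1, 2 and 3. KL cells are Lin-cKIT+Sca-1- progenitors of the bone marrow, here from male C57BL/6 mice of the genotype scl-Cre-ERT +; Bcorfl/y that received 1 mg tamoxifen on each of 5 days at 3 to 6 months of age and were sampled 20 weeks after tamoxifen. The Cre recombinase is driven by a stem cell element of the Scl gene, so cells of every lineage downstream of a recombined stem cell carry the deletion in the X-linked gene Bcor. All 3 libraries share this genotype and treatment. Of the 22 samples in the series the other 19 were not analysed here, and as these 3 libraries are of BcorΔE9-10 cells alone, genotypes were not compared.

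Red cells and platelets arise from a shared progenitor within the KL population. GATA factors direct this branch: Gata2 acts in stem cells and early progenitors and is replaced by Gata1 as cells commit, and Gata1 works with its cofactor Fog1, which Zfpm1 encodes. Klf1, Gfi1b and Nfe2 act with or downstream of Gata1. The KL gate mixes these progenitors with granulocyte and monocyte progenitors, and it removes maturing red cells through the lineage antibody Ter-119. A peak list of a mixed population cannot separate a mark carried by few cells from a weak mark carried by many.

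Replicates 1, 2 and 3 held 23410, 25963 and 23758 peaks at depths of 18.0, 18.9 and 19.3 M reads, as solved from the lists with fragments of 200 bp assumed. Fold enrichment is the ratio of fragments at a peak's summit to the local background of that library, with 1 added to each. At peaks near transcription start sites (TSSs) its median was 6.15, 6.0 and 7.08. No summit was called from fewer than 8, 8 and 9 fragments, and a higher local background raises this limit. A gene described as without a peak may thus still carry acetylation that was not called. Of the markers of the sorted cells, Kit (9.77 ± 0.162, SD, n = 3) and Cd34 (5.02 ± 1.32) had a TSS peak in all 3 libraries, and Fcgr3 had none. Ly6a, which encodes the Sca-1 protein gated out, and the lineage genes Itgam and Ly6g had no TSS peak in any library. The T cell gene Cd5, also a lineage marker, had a TSS peak of 5.01 ± 0.901 in all 3. The part that cells outside the gate play in the values below was not tested.

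A TSS peak, defined as a peak within 2.5 kb of any annotated TSS of the gene, was found in all 3 libraries at 4 of the 10 genes, namely Gata2, Nfe2, Tfrc and Itga2b. Klf1 and Zfpm1 had a TSS peak in replicates 1 and 3 and none in replicate 2. Gata1, Gfi1b, Epor and Car1 had none in any library. Over all protein-coding genes, 43.9% had a TSS peak in all 3 libraries and 50.1% had none, so the 4 genes of 10 with a peak in all 3 and the 4 of 10 with none were close to the shares over all genes. The pattern of Klf1 and Zfpm1 was found at 168 protein-coding genes, or 0.766%. The other pairs of replicates gave 0.679% and 1.49%, and 644 protein-coding genes had a TSS peak in exactly 2 libraries. Any 1 pair is thus rare over all genes, and whether Klf1 and Zfpm1 stand out from this was not tested. Distal regions, which lie in or within 50 kb of the gene and over 2.5 kb from every annotated TSS, were found in all 3 libraries at 1 of the 10 genes, Gata2, against 13.7% of all protein-coding genes. In fewer libraries distal regions were found at Zfpm1, Epor and Klf1, and at the other 6 genes none was found.

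**Figure D1:**
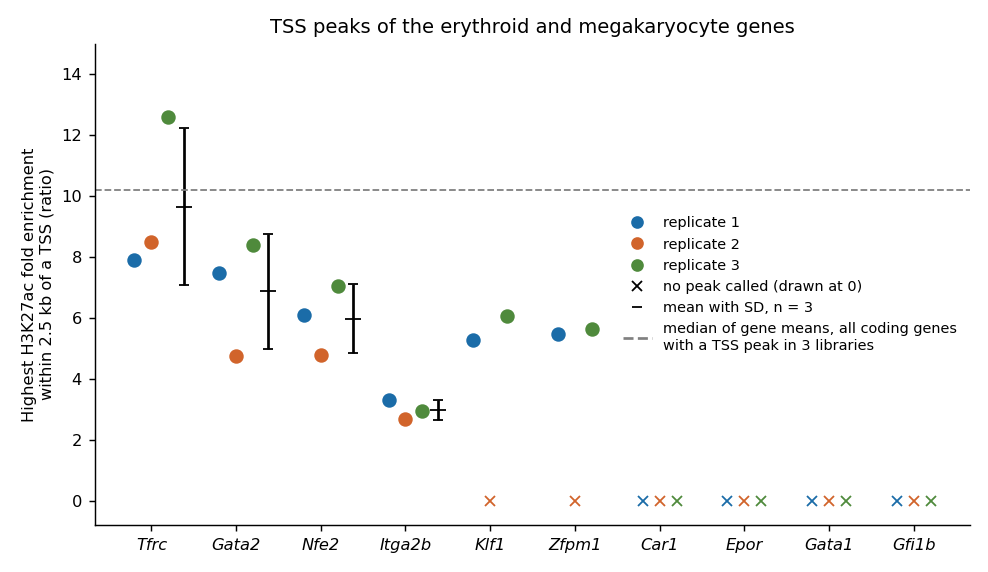
Highest H3K27ac fold enrichment (a ratio, linear axis) within 2.5 kb of a TSS, for each of the 10 genes. Circles are the 3 libraries by colour, crosses at 0 mark a library with no called peak, black bars give the mean and SD of 3 libraries, and the dashed line is the median of 10.2 over the means of the 9637 protein-coding genes with a TSS peak in all 3; only Tfrc in replicate 3 (12.6) lies above it.

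Gata2, the GATA factor of stem cells and early progenitors, had the most regions, 12 in the window of chr6:88193891-88207032 and its flanks. Its TSS fold enrichment was 7.47 in replicate 1, 4.75 in replicate 2 and 8.39 in replicate 3 (6.87 ± 1.89, SD, n = 3). Replicate 2 was the lowest, with 14 fragments at the summit against 25 and 28. In all 3 libraries this value came from the same region, chr6:88196533-88197483. The region lies in an intron 3.41 kb downstream of the first annotated start and 851 bp from the nearest of the 4 annotated starts, and its summits lay within 478 bp of each other. The first start itself carried a peak in replicate 3 alone (4.25). A region 340 bp from the nearest annotated start, which overlapped the internal promoter that RefSeq lists, was called in replicates 2 and 3 (3.57 and 4.88). A region 8.21 kb into the gene was also called in replicates 2 and 3 (4.30 and 4.23).

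The distal region of Gata2 lay 28.0 kb upstream of the first start at chr6:88165185-88165999, and Gata2 was the gene with the closest coding TSS. Its fold enrichment was 4.15, 4.45 and 4.92 (4.50 ± 0.389, SD, n = 3), from 15, 15 and 19 fragments, with summits within 374 bp. The values of the 3 libraries were closer together than those of the intronic region. The TSS value was above the distal value in all 3 libraries, by 3.33, 0.302 and 3.47 (mean 2.37 ± 1.79, exact two-sided sign-flip permutation test, p = 0.25, the smallest that 3 libraries can give). In replicate 2 the regions differed little. A further 6 distal regions near Gata2 were each called in 1 library, of which 3 lay beside the shared region (3.31 in replicate 1, 4.39 and 4.15 in replicate 3) and 2 in replicate 1 lay past the gene, 60.7 and 62.2 kb from the first start, with Dnajb8 as the closest coding gene.

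**Figure D2:**
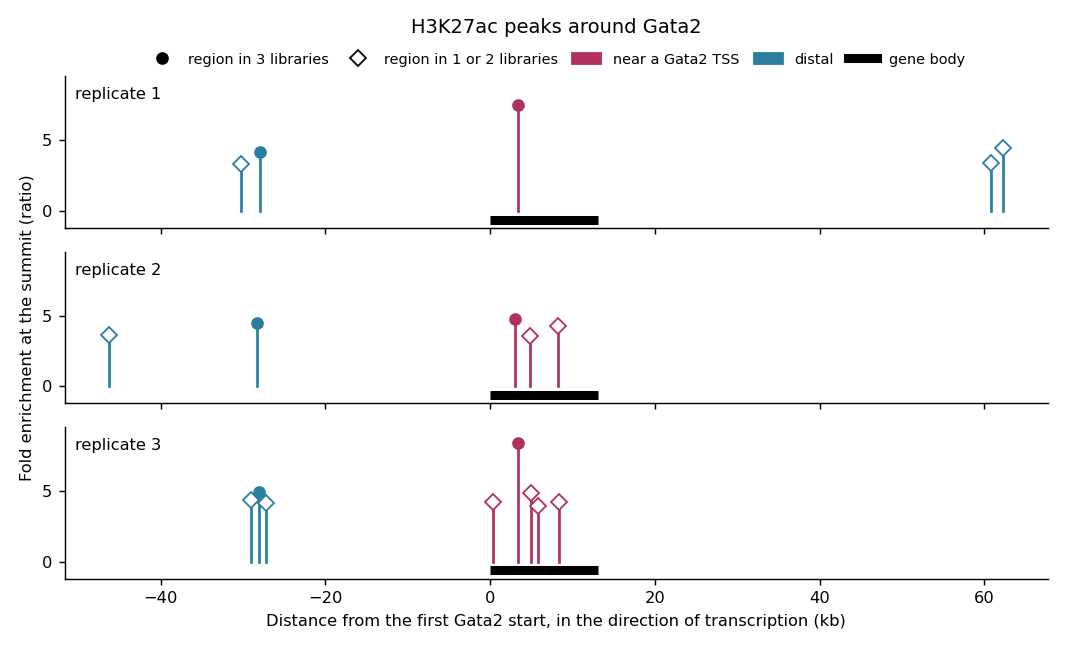
Peaks around Gata2 in each library: the horizontal axis is the distance in kb from the first start in the direction of transcription, the height is the fold enrichment at the summit (ratio), and the black bar is the gene body. Filled circles are regions found in 3 libraries and open diamonds regions found in 1 or 2; only the intronic region and the region 28.0 kb upstream appear in every panel.

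The sequences of the Gata2 elements are shown because they hold the regions called in every library, together with both promoters that RefSeq gives for the gene. They are from GRCm38, 5′ to 3′ on the plus strand, and the region sequences cover 300 bases around the summit of the library with the highest fold enrichment. Capitals, here and in the promoters printed for other genes, mark matches on either strand to a GATA motif (AGATAA or TGATAA, or either with G as its last letter), a Runx motif (TGTGGT) or a Kruppel-like motif (CCACACCC), none of which overlapped another in these windows.
Gata2 distal region, chr6:88165714-88166013: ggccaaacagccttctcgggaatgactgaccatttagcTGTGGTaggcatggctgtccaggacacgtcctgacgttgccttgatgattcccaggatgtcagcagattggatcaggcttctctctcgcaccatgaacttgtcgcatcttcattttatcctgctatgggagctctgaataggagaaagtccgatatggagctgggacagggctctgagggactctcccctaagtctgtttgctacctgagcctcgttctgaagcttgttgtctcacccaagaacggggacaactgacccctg
Gata2 intronic region, chr6:88197148-88197447: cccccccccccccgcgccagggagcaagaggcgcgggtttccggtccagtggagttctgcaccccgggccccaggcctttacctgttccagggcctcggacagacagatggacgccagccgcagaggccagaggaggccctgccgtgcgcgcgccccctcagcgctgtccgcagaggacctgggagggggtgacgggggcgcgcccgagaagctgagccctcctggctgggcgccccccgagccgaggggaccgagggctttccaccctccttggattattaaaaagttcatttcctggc
Gata2 promoter at the first start, chr6:88193641-88193940: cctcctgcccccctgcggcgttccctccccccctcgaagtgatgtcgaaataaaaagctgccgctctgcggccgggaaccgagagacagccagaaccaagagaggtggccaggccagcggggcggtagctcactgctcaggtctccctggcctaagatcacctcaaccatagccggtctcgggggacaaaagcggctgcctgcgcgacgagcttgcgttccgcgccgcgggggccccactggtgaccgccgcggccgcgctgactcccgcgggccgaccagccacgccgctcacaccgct
Gata2 promoter at the internal start, chr6:88198414-88198713: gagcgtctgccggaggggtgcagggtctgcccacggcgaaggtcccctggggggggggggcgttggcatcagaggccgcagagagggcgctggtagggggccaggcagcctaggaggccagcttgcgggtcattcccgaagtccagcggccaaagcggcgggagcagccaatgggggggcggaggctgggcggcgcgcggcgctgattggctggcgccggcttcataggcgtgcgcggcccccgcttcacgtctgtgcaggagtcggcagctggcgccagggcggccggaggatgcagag
The distal window held 1 Runx match and no GATA match. Among the 2460 distal regions called in all 3 libraries, 22.2% of windows of this length held the Runx motif and 31.0% a GATA motif. The intronic window and both promoters held no match to the motifs in capitals.

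Gata1, the factor of committed erythroid and megakaryocyte cells, lies at chrX:7959260-7978071 and had no TSS peak and no distal peak in any library. The window held 1 peak, in replicate 1 (4.44, 12 fragments), at the TSS of Hdac6. Protein-coding genes other than Gata1 with a start in this window numbered 5, Hdac6 among them. On the X chromosome, which male cells carry as a lone copy, 23.9% of 948 protein-coding genes had a TSS peak in all 3 libraries. On the autosomes the share was 45.2% of 20807. Whether this difference bears on Gata1 was not tested. The RefSeq promoter, shown because no library called it, held none of the motifs in capitals; it is given on the minus strand, as the gene is read.
Gata1 promoter, chrX:7967861-7968160: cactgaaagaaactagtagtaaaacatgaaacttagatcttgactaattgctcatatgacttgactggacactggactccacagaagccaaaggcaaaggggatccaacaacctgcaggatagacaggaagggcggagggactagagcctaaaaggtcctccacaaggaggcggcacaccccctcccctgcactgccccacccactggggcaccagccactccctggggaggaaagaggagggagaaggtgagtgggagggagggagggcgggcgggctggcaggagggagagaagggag

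Klf1, the Kruppel-like activator of globin and other red cell genes, is a short gene at chr8:84901928-84905291 and had peaks downstream of its start rather than on it. A region 1.04 kb into the gene, with its summit in an exon, had a fold enrichment of 3.35 in replicate 1 and 6.07 in replicate 3, and a second exonic region, 1.42 kb in, had 5.29 in replicate 1. Replicate 2 had no peak at either place. The highest value of a library, 5.29 and 6.07, stood at the 19.1 and 17.5 percentile of genes with a TSS peak in those libraries. At the start of Dnase2a, 6.95 kb downstream, the fold enrichment was 13.1 in replicate 1 and 16.1 in replicate 3, and the peak was present in replicate 2 as well. The promoter of Klf1 held 1 GATA and 1 Runx match, and it is shown with those of Gfi1b and Epor below, chosen after the matches were counted because these 3 held a GATA match.

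Zfpm1, which encodes the Gata1 cofactor Fog1, spans 55.1 kb at chr8:122282141-122337251. A region in the first part of the gene, chr8:122282224-122282866, had a fold enrichment of 5.46 in replicate 1 and 5.65 in replicate 3, from 18 and 22 fragments, and was not called in replicate 2. A second region 1.09 kb into the gene was called in replicate 3 alone (3.80). Of its 4 distal regions, the region at chr8:122349272-122350193 beyond the 3′ end was called in replicates 2 and 3 (3.33 and 5.70, from 19 and 28 fragments), and the others in replicate 3 alone (4.23, 4.50 and 4.34). The closest coding TSS to the shared distal region was that of Trhr2, 10.6 kb away, so the region was nearer to another gene than to Zfpm1.

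Gfi1b, the repressor that partners Gata1 in red cells and megakaryocytes, had no TSS and no distal peak at chr2:28609450-28621982. Its window held regions in all 3 libraries at Tsc1 on one side (13.3, 12.7 and 13.2) and at Gtf3c5 on the other (3.82, 3.17 and 4.10). Libraries thus called the neighbours and not Gfi1b.

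Nfe2, the p45 subunit of the NF-E2 factor that drives platelet release and globin genes, had TSS peaks of 6.09, 4.79 and 7.05 at chr15:103248212-103258403 (5.98 ± 1.13, SD, n = 3). The gene has 10 annotated starts and had 6 TSS regions. The region at chr15:103254163-103255416, 3.21 kb downstream of the first start and 23 bp from an internal start, was called in all 3 libraries (6.09, 4.79 and 6.70, from 26, 22 and 29 fragments). The region 0.403 kb from the first start was called in replicates 2 and 3 (4.78 and 7.05) and gave the highest value of replicate 3. In replicate 1 no region was called near the first start. No distal region was found.

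Epor, the receptor for erythropoietin, had no TSS peak at chr9:21958897-21963506. Its 2 distal regions were each called in 1 library (3.07 in replicate 1, 5.20 in replicate 3), lay over 50 kb from its start and had Rab3d as the closest coding gene. The highest peak of the window lay only 7.61 kb downstream, at the start of Swsap1, with a fold enrichment of 22.5, 20.8 and 23.8 from 86, 82 and 96 fragments. No peak was called at Epor in any library beside these values. Its promoter held 1 GATA and 1 Runx match.
Klf1 promoter, chr8:84901732-84902031, plus strand: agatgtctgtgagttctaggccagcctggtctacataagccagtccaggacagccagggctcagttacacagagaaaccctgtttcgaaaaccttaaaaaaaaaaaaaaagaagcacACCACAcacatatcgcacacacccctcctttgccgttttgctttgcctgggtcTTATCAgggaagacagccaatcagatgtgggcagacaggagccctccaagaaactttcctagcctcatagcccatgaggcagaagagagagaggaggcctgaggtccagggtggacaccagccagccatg
Gfi1b promoter, chr2:28621933-28622232, minus strand: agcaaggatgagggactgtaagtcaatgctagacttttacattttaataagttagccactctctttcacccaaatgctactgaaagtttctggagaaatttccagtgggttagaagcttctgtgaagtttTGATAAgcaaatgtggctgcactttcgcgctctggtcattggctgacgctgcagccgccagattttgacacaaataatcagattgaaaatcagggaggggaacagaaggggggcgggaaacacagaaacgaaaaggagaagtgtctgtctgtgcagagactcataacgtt
Epor promoter, chr9:21963527-21963826, minus strand: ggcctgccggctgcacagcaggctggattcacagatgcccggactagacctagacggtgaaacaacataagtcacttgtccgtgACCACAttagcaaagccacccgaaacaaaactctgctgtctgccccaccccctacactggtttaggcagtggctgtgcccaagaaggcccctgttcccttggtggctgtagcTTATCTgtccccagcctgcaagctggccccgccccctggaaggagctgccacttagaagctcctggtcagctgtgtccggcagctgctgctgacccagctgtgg
RefSeq promoters, 300 bases each, were found for 8 of the 10 genes and numbered 10, since Gata2 and Tfrc each have a pair. GATA motifs were in 3 of these 10 promoters, against 29.8% of all 32851 promoters of the same length, and Runx motifs in 2 of 10 against 16.8%. The Kruppel-like motif was in 0 of 10, against 3.56% of all. The E-box CANNTG was in 7 of 10 against 72.3%, and the ETS core GGAA in 10 of 10 against 96.0%.

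Tfrc, the transferrin receptor that takes up iron in dividing and haemoglobin-making cells, had the highest TSS value of the 10 genes. Its fold enrichment was 7.90, 8.48 and 12.6 (9.66 ± 2.57, SD, n = 3), from 34, 38 and 58 fragments, and replicate 3 stood above the others. The 3 summits lay within 12 bp, 286 to 298 bp downstream of the start. Among genes with a TSS peak in the same library Tfrc stood at the 41.5, 43.8 and 61.0 percentile. The RefSeq promoter closest to the summits held none of the motifs in capitals, whereas the 300 bases around the summit, chr16:32609068-32609367, held 1 Kruppel-like match. That motif was in 2.76% of such windows at the 11820 regions near a TSS called in all 3 libraries.
Tfrc promoter, chr16:32608872-32609171, plus strand: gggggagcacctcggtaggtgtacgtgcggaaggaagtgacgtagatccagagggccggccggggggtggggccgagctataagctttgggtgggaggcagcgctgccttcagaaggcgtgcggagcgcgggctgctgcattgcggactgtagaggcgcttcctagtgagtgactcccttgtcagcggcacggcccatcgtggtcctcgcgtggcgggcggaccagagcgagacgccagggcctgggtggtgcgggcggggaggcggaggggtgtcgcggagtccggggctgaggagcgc

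Itga2b, which encodes the CD41 chain of the platelet fibrinogen receptor, had the lowest TSS value. Its fold enrichment was 3.32, 2.67 and 2.95 (2.98 ± 0.33, SD, n = 3), and its mean was the lowest of the 9637 genes with a TSS peak in all 3 libraries. The region, chr11:102467332-102467889, whose summit window held 1 Runx match (10.7% of such windows near a TSS held that motif), lies in an intron 2.34 kb into the gene, 133 bp from an internal non-coding start and 1.99 kb from the coding start. No other region was called within 2.5 kb of a start of the gene. The region was called from 15, 15 and 17 fragments, and the −log10 q was 3.03, 1.82 and 2.32, so at a −log10 q of at least 5 the gene had no TSS peak in any library and 3 of the 10 genes were left with a peak in all 3.

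Car1, a carbonic anhydrase made early in erythroid differentiation, had no peak of any kind in the gene, at chr3:14766216-14808368, or within 50 kb of it, in any library. No other protein-coding gene starts in this window. It was the only window of the 10 without a peak.

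By mean TSS fold enrichment the order was Tfrc, Gata2, Nfe2, Itga2b. Tfrc was above Gata2 in all 3 libraries by 0.423, 3.73 and 4.22 (mean 2.79 ± 2.07, SD, n = 3). Gata2 was above Nfe2 in 2 of 3 libraries, with differences of 1.38, -0.0449 and 1.33 (mean 0.89 ± 0.81). Nfe2 was above Itga2b in all 3 by 2.77, 2.13 and 4.10 (mean 3.00 ± 1.01). The exact two-sided sign-flip permutation p was 0.25, 0.5 and 0.25 for these 3 pairs, and with 3 libraries none can be below 0.25, so no pair of neighbours could pass 0.05 before adjustment. The median of the 4 means was 6.42, against 10.2 over all genes with a TSS peak in all 3 libraries.

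The regions in the windows of the 10 genes were sorted by what they lay on. Of 18 regions at a TSS of the gene itself, 4 (22.2%) were called in all 3 libraries, as were 16 of 22 (72.7%) at the TSS of another gene and 1 of 14 (7.14%) distal ones. Over the genome 59.6% of regions near a TSS and 16.7% of distal regions were called in all 3. Regions of 1 gene are not independent, and of the 18 Gata2 gave 5 and Nfe2 gave 6, each with 1 called in all 3. Counted by gene, 4 of 10 had a TSS peak in all 3 libraries, against 43.9% of all protein-coding genes. These shares by gene also count genes without any peak, so they do not measure agreement between libraries. Of the 10 genes 4 had a TSS peak in 3 libraries, 2 in 2 and 0 in 1. Over all protein-coding genes these counts were 9637, 644 and 667. Whether the libraries agreed less at these genes was not tested. Median fold enrichment was 5.38, 4.30 and 4.54 at the genes' own starts and 7.32, 5.79 and 8.22 at starts of other genes. In replicate 1 the highest peak of the window lay at another gene in 7 of the 9 windows with a peak. In replicates 2 and 3 it did so in 6 of 8. In each library it lay at the gene's own start for Gata2 and Tfrc alone. The same count over all protein-coding genes was not made, so whether this is usual is not known. The windows held from 0 (Car1) to 8 (Epor) other protein-coding genes with a start in them.

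**Figure D3:**
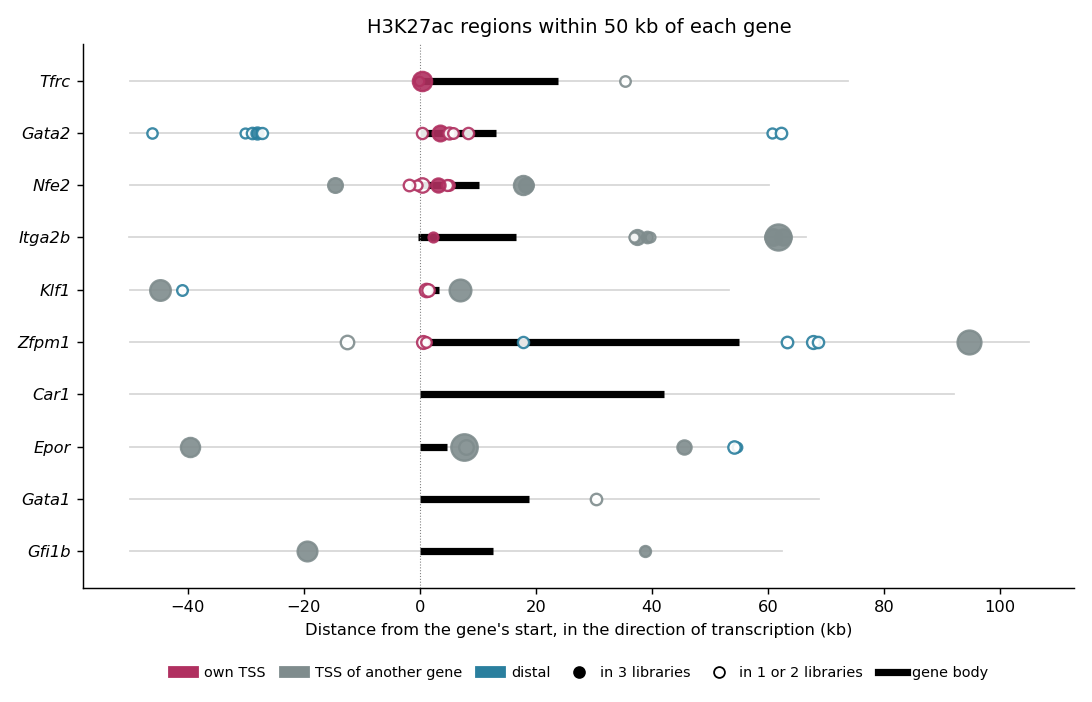
Regions in and within 50 kb of each gene, drawn at the distance in kb of the summit from the gene's start in the direction of transcription. Black bars are gene bodies, grey lines the windows, colour gives the class of the region, the area of a circle grows with its highest fold enrichment, and filled circles were called in 3 libraries; the blue distal circles are open except for the region 28.0 kb upstream of Gata2, and the Car1 line is empty.

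**Figure D4:**
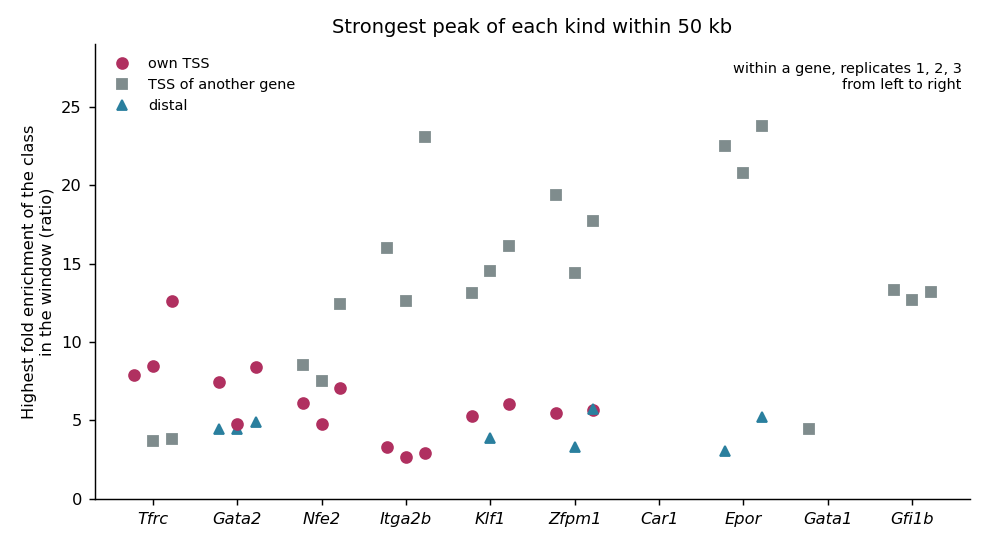
Highest fold enrichment (ratio, linear axis) of each class of region in the window of each gene, with replicates 1, 2 and 3 from left to right within a gene. Grey squares at other genes' starts lie above the gene's own start at Nfe2, Itga2b, Klf1 and Zfpm1 and reach 23.8 beside Epor, whereas red circles lie on top at Tfrc and Gata2.

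Super-enhancers, stretches of neighbouring peaks whose summed signal ranks past the point at which the scaled curve has a slope of 1, numbered 1383, 1083 and 1190. In at least 2 libraries 0 of the 10 genes had one assigned, against 8.26% of all protein-coding genes. Nfe2 had one in replicate 3 alone, where its stitched region ranked 575 of 11525, against 2322 of 11779 and 1912 of 12327 in replicates 1 and 2. The region in replicate 3 was 34.0 kb long and took in the starts of Hnrnpa1, Cbx5 and Copz1. The stitched region of Gata2 ranked 6495, 6757 and 2954, with 1, 3 and 5 peaks, and that of Tfrc 6093, 5146 and 4535.

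Lists of other genes of these lineages were counted in the same way, without a test. Of 17 other erythroid genes 5 (29.4%) had a TSS peak in all 3 libraries, and their median was 9.41. Car2, a carbonic anhydrase like Car1, had 9.41 ± 2.04 (SD, n = 3). The lowest was Cpox (5.06 ± 1.89). Genes without a TSS peak in any library included Slc4a1, Alas2, Sptb, Epb42, Rhag, Ermap and Trim10, genes of the red cell membrane and surface other than Alas2, the erythroid enzyme of haem synthesis, and Trim10. Of 16 other megakaryocyte genes 4 (25.0%) had a peak in all 3, with Fli1 (20.4 ± 3.41), an ETS factor also used in other blood cells, highest and Gp9 (4.23 ± 0.624), a chain of the von Willebrand factor receptor, lowest. Pf4, Ppbp, Gp1bb, Gp6, Treml1, Clec1b, Tubb1 and Selp were among those with none.

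Of 12 genes of the granulocyte and monocyte line, 10 (83.3%) had a TSS peak in all 3 libraries, from 4.58 ± 0.252 at Csf1r to 13.7 ± 1.66 at Csf2ra, with a median of 6.53. Elane had one in replicate 3 alone (3.34) and Irf8 had none. Distal regions in all 3 libraries were found at 5 of these 12 genes and summed to 11, against 1 of 17 other erythroid genes, 3 of 16 other megakaryocyte genes and 1 of the 10 genes described. The median of Gata2, Nfe2, Tfrc and Itga2b was 6.42, beside 6.53 for the granulocyte and monocyte genes. Differences between lists were not tested, since lists of genes are not replicates. The lists were not matched for the stage at which their genes act and were chosen with earlier results known. Their shares therefore do not compare the lineages within the KL cells.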

How the data were processed

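ChIP-seq reads for H3K27ac from KL cells of 3 BcorΔE9-10 mice had been trimmed with cutadapt 1.7, aligned to GRCm38 with Bowtie2 and called with MACS2 2.1.1 by the authors, in each library separately and without pooling (versions per the submitters' processing notes). The control and the settings of the caller are not given in the sources used here. The deposited lists give each summit a score (10 times the −log10 q, not used), a fold enrichment, which is a ratio to the local background within the library and is not scaled between libraries, and the −log10 of its p-value and q-value; the largest q was 0.0499. Read numbers are absent from the lists, so fragments at each summit and the depth were solved from the deposited fold enrichment and p-value. All rows solved (100%), against 0.917% to 1.16% after shuffling p-values. The depths assume fragments of 200 bp, so this assumption limits them as well as counting error. Duplicates had been removed without molecular identifiers.

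Rows repeating an interval were 1 peak with its highest fold enrichment. Peaks were merged into regions at an overlap of 1 bp and set against GENCODE M21, whose build is that of the files, on chromosomes 1 to 19, X and Y. The TSS value of a gene is its highest peak within 2.5 kb of any annotated TSS. Super-enhancers followed the slope of 1 of the study. Peaks, those near TSSs included, were stitched over a distance that lies between the 5 and 20 kb tried as alternatives. Fold enrichment times length was the signal in place of tag counts. The calls were more numerous than those the study reports, so the counts here are not on its scale. Promoters and windows came from RefSeq GRCm38 (pysam 0.24.0, samtools 1.23.1), with scripts in Python 3.11.15 tested on simulated data. The labels number the libraries as replicates, so differences were taken within a library, and an exact permutation test flipped their signs over the 3 libraries (two-sided, smallest p 0.25). The 10 genes and all lists were chosen with earlier results of these data known. All 10 genes are named; of other lists, the highest, the lowest and those without a TSS peak, of which some are not reported here. Of 18 other erythroid symbols 17 were found.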

Additional observations from a re-analysis of the deposited data

How the results depend on the processing

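The count of genes with a TSS peak in all 3 libraries was 4 with a TSS window of 1 or 5 kb and with protein-coding starts only, and 3 at a −log10 q of at least 5, where Itga2b was lost. Requiring only the remaining libraries gave 4 to 6, the highest without replicate 2, when Klf1 and Zfpm1 were added. Over all protein-coding genes the share was 43.9% in the main setting, 39.2% at the stricter threshold and 44.7% without replicate 2. The distal finding depended on the settings more. Both the genes with a distal region in all 3 libraries and the regions themselves numbered 1, at Gata2. They fell to 0 at a −log10 q of at least 5 and to 0 within 20 kb of the gene, and rose to 2 within 100 kb, where a region at Klf1 was added. The share of all protein-coding genes with such a region moved the same way, from 13.7% to 6.77%, 7.95% and 21.7%. The falls and the rise are thus not particular to these 10 genes. Leaving out each replicate gave 1 to 2, with 2 without replicate 1, when the region beyond Zfpm1 was added. The share of all protein-coding genes was then 18.5% without replicate 1, 16.3% without replicate 2 and 16.4% without replicate 3. A TSS window of 1 or 5 kb, a reciprocal overlap of 50% and regions closest to the gene itself each left 1. Over all protein-coding genes the share was 17.6% and 10.5% with these windows and 6.0% with regions closest to the gene. No gene had a super-enhancer in 2 libraries under any of the alternatives run (0 throughout, stitching at 5 and 20 kb, no TSS peaks, summed fold enrichment and the stricter threshold included). Over all protein-coding genes the share ran from 1.3% without TSS peaks to 8.77% with stitching at 5 kb. All 31 recomputed TSS fold enrichments of Gata2, Nfe2, Tfrc and Itga2b moved by less than 1 SD of the libraries. Those that left out 1 replicate are no test, since a mean of 3 libraries cannot then move by 1 SD. Of the other settings, several returned the same value. The largest move among them was at Gata2, from 6.87 to 5.1 with the peak closest to a TSS. All 4 genes kept their place in the order when −log10 p replaced fold enrichment. The stricter threshold and protein-coding starts were added for the TSS fold enrichments after seeing the data. No paired analysis was possible because the libraries form 1 group, and replicate numbers thus pair nothing between groups; differences between genes or regions were taken within a library. The depth limits the lists to summits of 8 or more fragments, and more are needed where the local background is higher. A gene without a peak may thus carry acetylation that was not called.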
